A study of Mus musculus with 6 samples.

Results

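Gfap, Vim, Nes and Synm encode the cytoplasmic intermediate filament proteins of astrocytes, and their mRNA was compared between the frontal cortex of 3 GFAP-IL6 mice and 3 wild-type (WT) mice. The genes were chosen by symbol from a combined TruSeq count table, in which they are 4 of 33000 rows. All 4 passed the filter on low counts and were among the 15341 genes tested. TruSeq is the Illumina mRNA protocol that covers transcripts along their length. All 6 mice were 3 months old and of the C57BL/6 strain, each gave 1 library, and their sex was not given in the sources used here. The GFAP-IL6 mice were homozygous for a transgene in which the Gfap promoter drives IL6, an inflammatory cytokine, in astrocytes, and the WT mice carried no transgene. Counts are assigned by gene, so any transcript of the transgene that carries Gfap sequence would be counted with the endogenous gene, and the sources cannot be told apart in the Gfap row. Gfap is therefore read below against Vim, Nes and Synm. The tissue was whole frontal cortex, in which fewer cells of a type and less RNA per cell cannot be told apart.

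Intermediate filaments are rope-like polymers that give a cell mechanical strength and anchor its organelles. Glial fibrillary acidic protein, encoded by Gfap, is the main filament protein of mature astrocytes and is the classical marker of their reactive state. Vimentin, from Vim, forms filaments with it and is also made by endothelial cells, fibroblasts, vascular smooth muscle and microglia. Nestin, from Nes, is best known from neural progenitors and is made by blood vessel cells and by some reactive astrocytes. Synemin, from Synm, is a large protein that does not form filaments alone and joins those built by vimentin or by other partners.

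The genes lie on 4 chromosomes of the GRCm38 assembly, with exons as annotated in GENCODE release M21. Gfap (ENSMUSG00000020932.12) spans chromosome 11 from 102887336 to 102900912 on the minus strand, with 11 exons after merging 3 transcripts. Vim (ENSMUSG00000026728.7) spans chromosome 2 from 13573927 to 13582826 on the plus strand, with 7 merged exons. Nes (ENSMUSG00000004891.14) spans chromosome 3 from 87971078 to 87980451 on the plus strand, with 4 merged exons. Synm (ENSMUSG00000030554.13) spans chromosome 7 from 67730160 to 67759742 on the minus strand, with 5 merged exons. In Synm, 510 exon bases overlap exons of Ttc23 and Gm45102 on the opposite strand, and whether counting used strand was not given in the sources used here.

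The 250 bases before the annotated start are shown for Gfap, whose promoter drives the transgene and whose mRNA differed most between groups, and for Synm, whose mRNA differed least. The sequences are from RefSeq on GRCm38.p6, read 5′ to 3′ on the minus strand, from chr11:102897201-102897450 for Gfap and chr7:67759743-67759992 for Synm. Capitals mark a match to the core site of nuclear factor I.
Gfap: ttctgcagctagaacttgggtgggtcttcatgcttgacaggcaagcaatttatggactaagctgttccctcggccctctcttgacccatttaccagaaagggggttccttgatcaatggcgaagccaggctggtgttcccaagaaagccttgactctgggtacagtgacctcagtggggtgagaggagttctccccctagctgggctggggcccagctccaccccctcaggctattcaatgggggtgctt
Synm: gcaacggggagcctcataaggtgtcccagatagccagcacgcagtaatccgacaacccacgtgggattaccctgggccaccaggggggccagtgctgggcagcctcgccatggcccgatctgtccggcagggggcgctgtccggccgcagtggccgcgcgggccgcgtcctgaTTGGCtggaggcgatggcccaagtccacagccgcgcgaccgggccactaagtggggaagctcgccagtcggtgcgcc

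The Gfap window held 55.6% G and C bases and 2 CpG dinucleotides, and the Synm window held 70.0% and 23. The median over all RefSeq windows of this length was 52.4% and 6 CpG. Both strands were searched for 5 motifs, and the shares of all 32817 windows with a match were 7.01% for the STAT site TTCNNNGAA, 6.75% for the AP-1 site TGANTCA, 41.5% for the nuclear factor I core site TTGGC, 32.7% for the GC box GGGCGG and 12.4% for the TATA box TATAAA. The Gfap window matched none of these letters, and the Synm window matched the core site 77 bases before the start. The Vim window matched the core site 93 and 16 bases and the TATA box 32 bases before the start, and the Nes window matched the GC box on the minus strand 73 and 62 bases before the start. These matches describe letters in a short window and say nothing of factor binding.

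Il6 was used to check the labels. Its counts were 0, 2 and 0 in WT against 12, 10 and 24 in GFAP-IL6 (edgeR adjusted p = 0.00208), at least 8.07-fold higher when WT is set to a floor of 3 counts per library. Library totals ran from 11591066 to 16877001 counts in WT and from 7559524 to 11072008 in GFAP-IL6, so each GFAP-IL6 library was shallower than each WT library. Filament gene counts ranged from 58 to 7795 in single libraries. Among the 15341 genes tested, 439 (2.86%) passed an adjusted p of 0.05 by the edgeR quasi-likelihood test, of which 407 (2.65% of those tested) were higher in GFAP-IL6. Unadjusted edgeR p-values under 0.05 were far more common than calls: the linker gene Macf1, at an unadjusted p of 0.0506, ranked 3165 by p. The groups did not overlap for 4067 genes (26.5%). The median log2 fold change of all genes was -0.004, with 5% of genes below -0.37 and 5% above 0.57.

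Gfap mRNA was 7.15-fold higher in GFAP-IL6 cortex, and it was the only filament gene of the 4 that passed the test. Vim, its main partner, was 1.5-fold higher without passing, and Nes and Synm differed little from 1-fold. Against the 2.86% of all genes called and the 26.5% without overlap, 1 of the 4 filament genes was called and 1 of the 4 had groups that did not overlap, in each case Gfap.

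The Gfap counts of replicates 1, 2 and 3 were 878, 2059 and 1341 in WT against 5773, 4889 and 7795 in GFAP-IL6. Per 1000000 counts of the library (CPM, with TMM factors), this was 76.4, 123 and 84.1 in WT, with a mean of 94.4 ± 24.8 CPM (SD, n = 3). The GFAP-IL6 libraries held 517, 645 and 869 CPM, with a mean of 677 ± 178 (SD, n = 3). Every GFAP-IL6 library was far above the highest WT library, replicate 2. The log2 fold change was 2.84 with a standard error (SE) of 0.20, a fold of 7.15 with a 95% interval of 5.31 to 9.64 and an edgeR adjusted p of 5.5e-06. Gfap ranked 12 of all tested genes by p, and 26 genes including Gfap had a log2 fold change at least as large.

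Vim had 25.2, 34.1 and 20.8 CPM in WT and 32.3, 38.0 and 50.8 CPM in GFAP-IL6, with means of 26.7 ± 6.81 and 40.4 ± 9.49 (SD, n = 3). The groups overlapped, since WT replicate 2 was above GFAP-IL6 replicate 1. The log2 fold change was 0.59 (SE 0.18), with a 95% interval of the fold of 1.14 to 1.98. The edgeR adjusted p was 0.111, so Vim did not pass, although its unadjusted interval lay above 1-fold and 95.2% of tested genes had a lower log2 fold change. Without WT replicate 2 the log2 fold change was 0.82 and passed (edgeR adjusted p = 0.00504), and without GFAP-IL6 replicate 3 it was 0.39 (adjusted p = 0.418). DESeq2 on all libraries gave 0.59 with an adjusted p of 0.0343.

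The library on which the Vim call turns, WT replicate 2, also stood apart in markers of striatal neurons. Its summed level of 7 striatal neuron genes was 416 TPM (a level that divides counts by gene length and sums to 1000000 per library), against 213 and 216 in the other WT libraries and 195 to 253 in GFAP-IL6. Its sum of 6 meningeal fibroblast genes, 68.6 TPM, was the highest in WT but not far from the 59.1 TPM of WT replicate 1. GFAP-IL6 replicate 3, which had the highest Vim, also had the highest fibroblast sum, 85.9 TPM. The sums of the group spanned 43.3 to 68.6 TPM in WT and 48.8 to 85.9 in GFAP-IL6. Each of the 6 fibroblast genes was highest of the WT libraries in replicate 2, as were 7 of 8 microglial genes. The 10 mural genes were divided, with 7 highest and 3 lowest there, and the 10 endothelial genes had 3 highest and 7 lowest. The part of these differences in the Vim values was not tested.

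Nes had the fewest counts of the 4, with 13.0, 11.1 and 14.0 CPM in WT and 13.8, 7.65 and 13.7 in GFAP-IL6. GFAP-IL6 replicate 2, the shallowest library with 58 Nes counts, was below all others, and the other GFAP-IL6 values lay within the WT range. The means were 12.7 ± 1.5 and 11.7 ± 3.52 CPM (SD, n = 3). The log2 fold change was -0.09 (SE 0.19, edgeR adjusted p = 0.813) and its interval allowed folds from 0.704 to 1.25. It was 0.12 without GFAP-IL6 replicate 2.

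Synm varied least between mice. It had 48.4, 42.2 and 46.3 CPM in WT and 49.1, 44.6 and 45.3 in GFAP-IL6, with means of 45.6 ± 3.15 and 46.3 ± 2.41 (SD, n = 3). The groups overlapped, with WT replicate 2 the lowest and GFAP-IL6 replicate 1 the highest of the 6 libraries. The log2 fold change was 0.03 (SE 0.09, edgeR adjusted p = 0.893), and the interval of the fold, 0.893 to 1.16, was the narrowest of the 4.

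**Figure D1:**
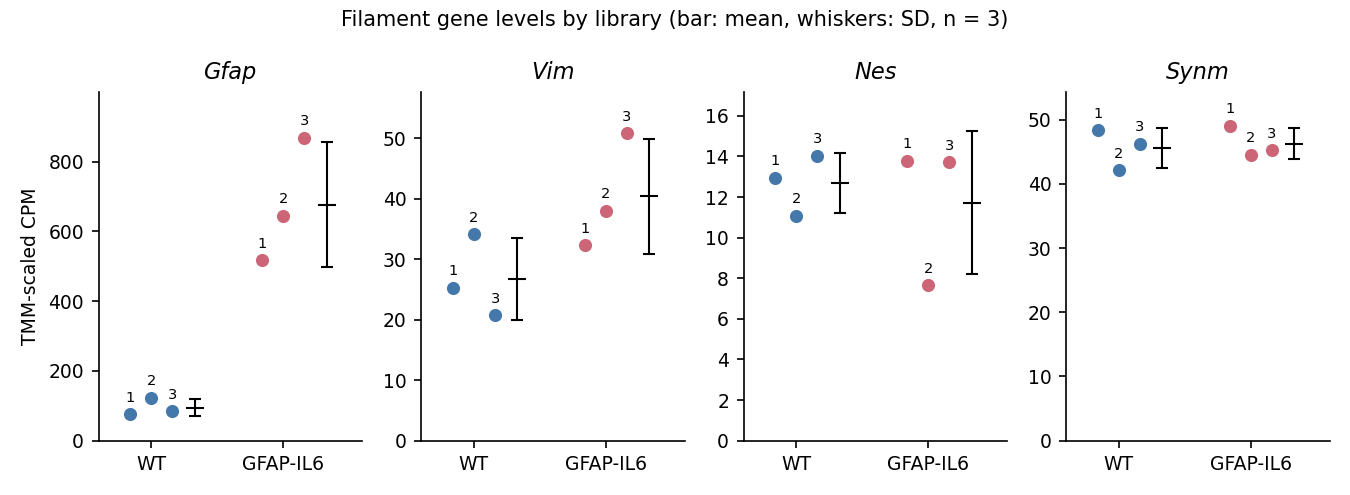
TMM-scaled CPM of each filament gene in the 3 WT (blue) and 3 GFAP-IL6 (red) libraries, numbered by replicate, with the mean as a bar and the SD as whiskers. Each panel has its own axis from 0. The Gfap groups are far apart (76.4 to 123 against 517 to 869 CPM), while the groups of Vim, Nes and Synm overlap.

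**Figure D2:**
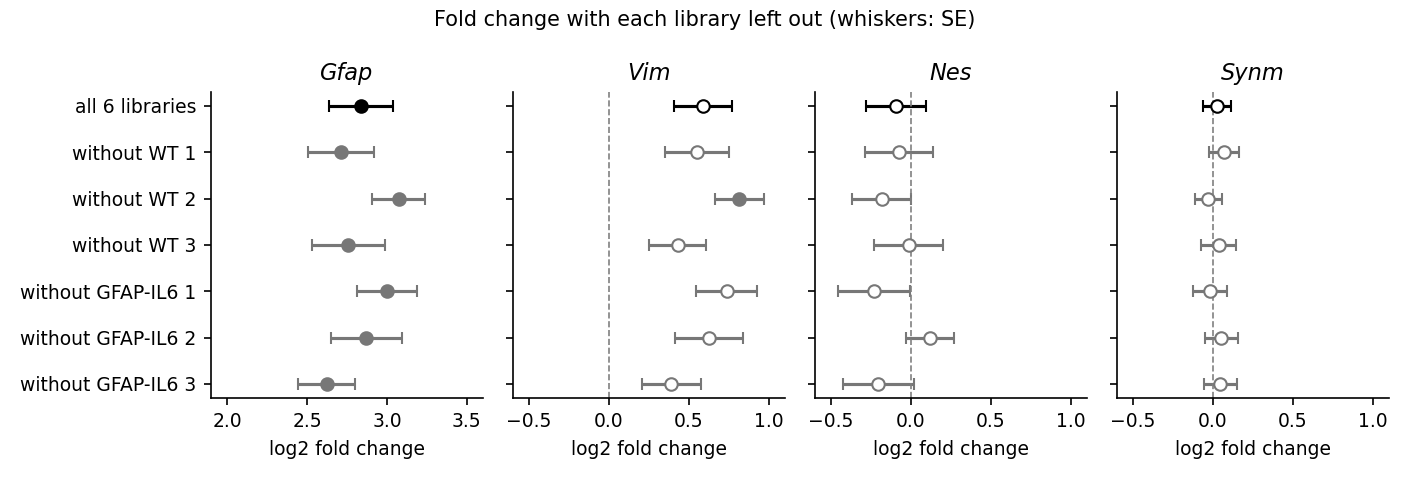
Log2 fold change (horizontal axis, GFAP-IL6 over WT) of each filament gene with all 6 libraries and with each left out in turn, with SE as whiskers. Filled points passed an edgeR adjusted p of 0.05, and the Gfap panel covers a different stretch of the axis. Gfap stayed between 2.62 and 3.07, and Vim was filled only without WT replicate 2.

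Levels of different genes were compared in TPM, which uses the gene length in the table. The order was Gfap, Vim, Synm, Nes in both groups, and in neither group did the ranges of neighbours in this order overlap. The place of Vim rests on its length, which is 2193 bases in the table and 4743 exon bases in GENCODE M21. With M21 lengths, tried after seeing the data, Vim and Synm had overlapping levels of 15.6 ± 3.62 and 16 ± 1.56 in WT (SD, n = 3), while in GFAP-IL6 Vim, at 24.8 ± 5.70, was above Synm, at 17.0 ± 1.06. Gfap held 64.1 ± 14.9 TPM in the WT libraries and 485 ± 125 in the GFAP-IL6 libraries (SD, n = 3). Vim held 33.7 ± 7.84 and 53.7 ± 12.3 TPM, Synm 16.1 ± 1.58 and 17.2 ± 1.07 TPM, and Nes 5.77 ± 0.791 and 5.59 ± 1.71 TPM. With the lengths of the table, Gfap was above Vim in each of the 6 libraries.

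The ratio of Gfap to Vim was close to constant among the GFAP-IL6 mice. On the log2 scale of TPM ratios it was 0.71, 0.95 and 1.13 in WT when sorted, with a mean of 0.93 ± 0.21 (SD, n = 3). In GFAP-IL6 it was 3.11, 3.19 and 3.2, with a mean of 3.17 ± 0.05 (SD, n = 3). Gfap and Vim were both lowest in GFAP-IL6 replicate 1 and highest in replicate 3, so they varied together among these mice. The groups differed by 2.24 without overlap. By exact permutation (two-sided) p was 0.1, and with 3 libraries a group it cannot be lower. After adjustment over the 6 pairs of genes it was 0.2.

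Gfap also separated the groups against the other partners. The mean log2 ratio of Gfap to Nes was 3.46 ± 0.52 in WT against 6.46 ± 0.59 in GFAP-IL6, and that of Gfap to Synm was 1.97 ± 0.46 against 4.79 ± 0.43 (SD, n = 3). Neither overlapped, and each had an exact permutation p of 0.1 (adjusted 0.2). The ratios without Gfap overlapped between groups. Vim to Nes differed by 0.76 and Vim to Synm by 0.58 (exact permutation p = 0.2 for each, adjusted 0.24), and Nes to Synm by -0.18 (exact permutation p = 0.8).

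**Figure D3:**
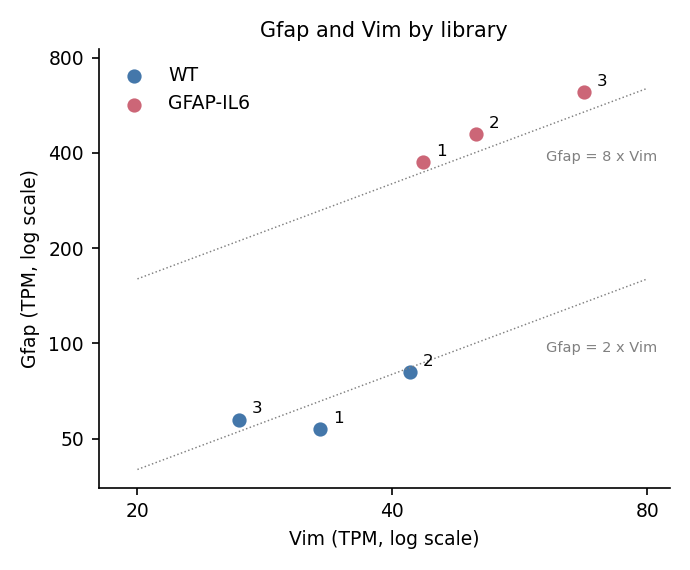
Gfap against Vim in TPM by the lengths of the table, both on log axes, for the 3 WT (blue) and 3 GFAP-IL6 (red) libraries numbered by replicate. Dotted lines mark fixed ratios of Gfap to Vim, and the GFAP-IL6 libraries lie along a higher ratio (log2 3.11 to 3.2) than the WT libraries (log2 0.71 to 1.13).

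The makeup of the filament transcripts followed from these values, in which Gfap counts of GFAP-IL6 mice may include transgene transcripts. Gfap took 48.7%, 57.0% and 53.9% of the summed TPM of the 4 genes in WT and 84.5%, 86.7% and 87.3% in GFAP-IL6. The share of Vim was 28% ± 2.86 in WT against 9.59% ± 0.192 in GFAP-IL6, that of Synm 13.8% ± 3.2 against 3.2% ± 0.905 and that of Nes 4.97% ± 1.36 against 1.03% ± 0.420 (SD, n = 3). Each share had an exact permutation p of 0.1. With M21 lengths the share of Gfap was 62.1% in WT and 90.6% in GFAP-IL6, and that of Vim 15.7% and 4.83%. Vim, Synm and Nes thus took smaller shares of a larger total, as the 4 genes summed, with the lengths of the table, to 120 ± 19.8 TPM in WT against 561 ± 137 in GFAP-IL6. Without Gfap the sum was 56.5, 61.3 and 49.1 TPM in WT and 68.6, 70.2 and 90.7 in GFAP-IL6. The ratio of means was 1.38 (exact permutation p = 0.1). Most of this rise lay in Vim, with means of 33.7 TPM in WT and 53.7 in GFAP-IL6. Synm had means of 16.1 and 17.2 TPM, and Nes 5.77 and 5.59. With M21 lengths the Vim means were 15.6 and 24.8, so the ratio of the sums rests on the length used.

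**Figure D4:**
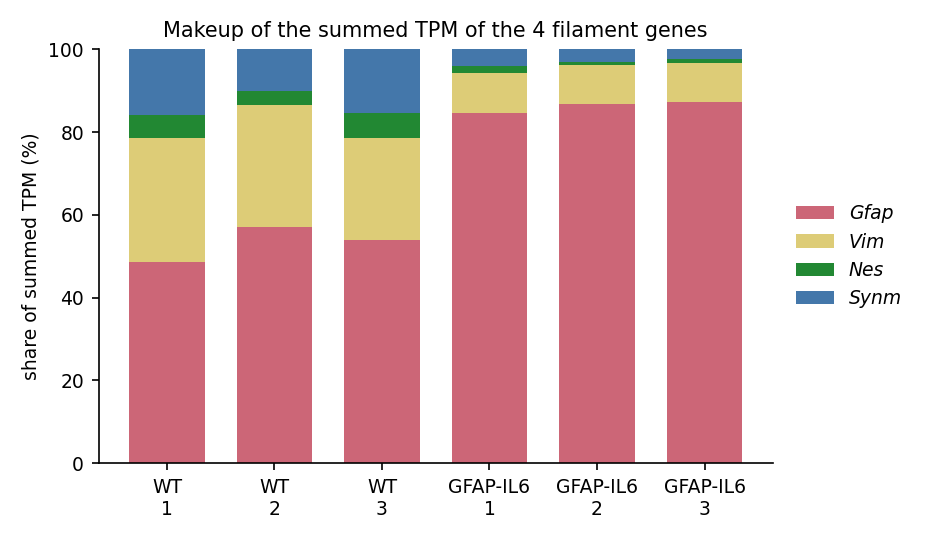
Share of each filament gene (vertical axis, percent) in the summed TPM of the 4 genes, by library, with the lengths of the table. Gfap takes 48.7% to 57.0% in the WT libraries and 84.5% to 87.3% in the GFAP-IL6 libraries, where its counts may include transgene transcripts.

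Genes that mark astrocytes in general lay on either side of no difference. Of 12 general astrocyte genes, 0 were called by edgeR (3 at an unadjusted p under 0.05), 2 by DESeq2 and 0 by limma-voom, with 6 above 0 and 6 below. The groups did not overlap for 3 of the 12, a share close to the 26.5% of all genes tested. These were Aqp4, Atp1b2 and Aldh1l1. Aqp4, the water channel, had a log2 fold change of 0.42 (edgeR adjusted p = 0.106), and Atp1b2, a sodium pump subunit, 0.37 (adjusted p = 0.068). Aldh1l1, a folate enzyme, had -0.21 (adjusted p = 0.235). The DESeq2 calls were Aqp4 and Atp1b2 (adjusted p = 0.0339 and 0.0165). Glul, the glutamine synthetase of astrocytes, had a log2 fold change of -0.06, and Slc1a2, their main glutamate transporter, 0.14. The summed level of the 12 genes was 4564 to 5372 TPM in WT and 4897 to 5649 in GFAP-IL6. Per unit of this sum, a scale added after seeing the data, the log2 difference was 2.81 for Gfap and 0.57 for Vim (exact permutation p = 0.1 for each), against -0.19 for Nes and -0.004 for Synm (exact permutation p = 0.7 and 1.0).

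The other genes of the filament family that were tested had log2 fold changes of -0.37 to 0.27. Of 16 table rows for neuronal and muscle filament genes, nuclear lamins, and keratin and lens filament genes, 10 were tested. Of these, 0 were called by edgeR, DESeq2 or limma-voom, 0 had an unadjusted edgeR p under 0.05, and their median log2 fold change was 0.05. The neurofilament genes Nefl and Nefm, which are neuronal, had log2 fold changes of -0.10 and 0.03. Lmna and Lmnb2, which line the nucleus, had 0.05 and 0.08, while the lamin gene Lmnb1 had -0.31 (edgeR adjusted p = 0.310). The lowest value was that of the lens gene Bfsp2, -0.37 (edgeR adjusted p = 0.481). The least certain value was that of the muscle gene Des, 0.25 (SE 0.36).

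**Figure D5:**
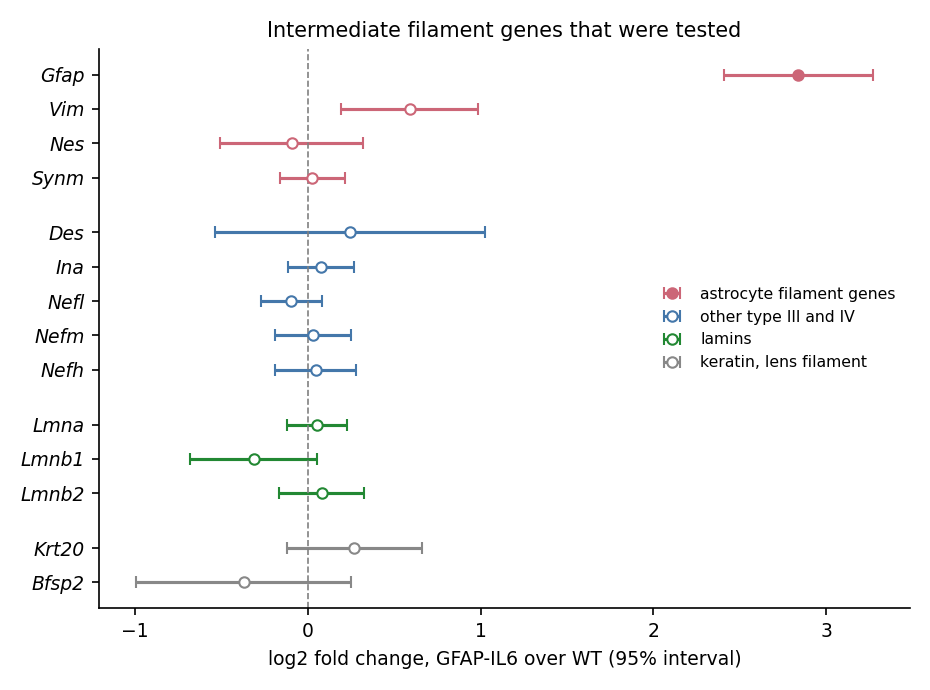
Log2 fold change (GFAP-IL6 over WT) of each filament gene that was tested, with 95% intervals, grouped by filament class. The Gfap point, filled because it passed an edgeR adjusted p of 0.05, lies at 2.84, and all other filament genes lie between -0.37 (Bfsp2) and 0.59 (Vim).

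Genes whose products bind, fold or modify filaments were also compared. Of 26 table rows, 21 were tested, and of these 0 were called by edgeR (4 at an unadjusted p under 0.05), DESeq2 or limma-voom, with a median log2 fold change of 0.04. Plec, which encodes plectin, the linker of filaments to the cell surface, had 0.38 (edgeR adjusted p = 0.187), and the actin and microtubule linker Macf1 had 0.27 (adjusted p = 0.245). Without the low-count filter 3 rows of the linker list were called, and without WT replicate 1, 2 were. Cryab, a small chaperone of Gfap filaments, had 0.01. The groups did not overlap for 3 of the 21 rows (14.3%, against 26.5% of all genes), and none of these passed. They included Hspb1, another small heat shock protein, with a log2 fold change of 0.87 (edgeR adjusted p = 0.0979). They also included the kinase gene Pak1, with -0.26 (adjusted p = 0.108). The last was a low-count row of the linker gene Dst (ENSMUSG00000103888.1), with 1.18 (adjusted p = 0.0752). Its means were 1.07 CPM in WT and 2.42 in GFAP-IL6. The Dst row with the most counts (ENSMUSG00000026131.15) had -0.06 (edgeR adjusted p = 0.787), with means of 58.5 and 56.2 CPM. Of 5 transcription factors of the astrocyte programme, Stat3, which carries the IL6 signal to the nucleus and acts on the Gfap promoter, was called, with 47.5 ± 0.783 CPM in WT against 82.6 ± 13.0 in GFAP-IL6 (SD, n = 3). Its log2 fold change was 0.80 (edgeR adjusted p = 0.000858), and that of Nfix was 0.10.

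Marker genes were also counted for other cells that make Vim or Nes. Of all 15341 genes tested, 7573 had a log2 fold change above 0 and 407 (2.65%) were called higher (edgeR). Of 10 endothelial genes, 10 had a log2 fold change above 0, with a median of 0.57, and 5 were called higher (edgeR). Among those called were Vwf, the clotting factor carrier, at 2.48 and Cldn5, a tight junction protein, at 0.93. The lowest of the 10 values was 0.06, for Emcn. The summed level of the 10 genes was 131 to 141 TPM in WT and 224 to 260 in GFAP-IL6. Without GFAP-IL6 replicate 1, 3 of the 10 endothelial genes were called. Of 10 mural genes, which mark pericytes and smooth muscle, 10 were above 0, with a median log2 fold change of 0.28. Of these, 4 had an unadjusted edgeR p under 0.05 and 1 was called, Rgs5, at 0.42 (edgeR adjusted p = 0.0289). The sum of the mural genes was 181 to 225 TPM in WT and 251 to 285 in GFAP-IL6. No mural gene was called without WT replicate 3 or without any one of the GFAP-IL6 libraries. Of 8 microglial genes, 7 were above 0 and called higher (edgeR), with log2 fold changes from 0.63 (Cx3cr1) to 2.03 (Itgam). C1qa had 1.61, while P2ry12 had -0.27 (edgeR adjusted p = 0.291). The sum of the 8 genes was 440 to 534 TPM in WT and 948 to 1087 in GFAP-IL6. Of the 6 meningeal fibroblast genes, 0 were called by any of the 3 tools. The part of these cell types in the Vim and Nes values was not tested.

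Of 9 neural progenitor genes, 0 were called by any of the 3 tools, and the values of Sox2 and Fabp7 were -0.12 and -0.02. Of 8 cortical neuron genes, 0 were called by any of the 3 tools (1 at an unadjusted edgeR p under 0.05). Of the 7 infiltrating leukocyte genes 0 passed the filter, and no library had more than 14 counts of any of them. Ccr2, a chemokine receptor, had 2, 11 and 8 counts in WT against 14, 5 and 13 in GFAP-IL6. Scaled to library depth, this was 0.174, 0.655 and 0.502 CPM in WT against 1.25, 0.659 and 1.45 in GFAP-IL6, a difference that was not tested. Of the list, 1 gene was at 0 in all libraries. The choroid plexus sum reached 1310 TPM in WT replicate 3 against 6.63 to 122 in the others, where Ttr had 8766 counts, and leaving that library out gave a Vim log2 fold change that still did not pass.

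The expression pattern of other genes was compared with that of Gfap over the 6 libraries by the root mean square difference between log2 CPM profiles, each centred on its own mean. The 3 most alike were Csf2rb, a cytokine receptor subunit, at 0.22, Spint1, a protease inhibitor, at 0.28, and Lrg1, a secreted glycoprotein, at 0.30. Their log2 fold changes were 2.68, 2.58 and 2.86. Their means were 7.47 ± 1.55, 8.10 ± 0.116 and 14.8 ± 3.79 CPM (SD, n = 3) in GFAP-IL6.

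At the Gfap locus, 1 of 5 tested neighbours was called. Fam187a lies on the opposite strand, 604 bases beyond the 3′ end of Gfap. Its counts were 0, 4 and 0 in WT against 116, 100 and 147 in GFAP-IL6 (edgeR adjusted p = 3.85e-06). As a share of the counts of Fam187a and Gfap together, this was 1.97% (95% exact Clopper-Pearson interval 1.63 to 2.36), 2.0% (1.63 to 2.43) and 1.85% (1.57 to 2.17) in GFAP-IL6, and the intervals overlap one another. In WT the summed share was 0.0934% (0.0255 to 0.239), and the WT intervals reached at most 0.496% in a single library. Intervals and floors cover counting error only. The log2 fold changes of Ccdc103, Eftud2, C1ql1 and Higd1b were -0.08, 0.04, 0.18 and 0.20, and Kif18b had too few counts to be tested.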

How the data were processed

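Frontal cortex RNA of 3 GFAP-IL6 and 3 WT mice was analysed, with groups and replicate numbers taken from the sample titles. Raw counts per gene and a gene length were deposited by the authors, who aligned reads to mm10 with STAR 2.4 and counted them against GENCODE genes with featureCounts. The submitters' notes list hg19, but gene identifiers and chromosomes were those of mouse. The strand setting was not given. The 3’Pool-seq libraries of the study were not analysed here.

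Counts were tested with edgeR 4.0.16 in R 4.3.3 (quasi-likelihood F-test, TMM factors, filterByExpr, Benjamini-Hochberg adjustment over 15341 genes, group as the only term), with an adjusted p of 0.05 as threshold. DESeq2 1.42.0 and limma-voom (limma 3.58.1) were alternatives, beside other normalizations, filters, thinning to 7559524 counts per library, a replicate block and leaving out each library. Ratios and shares were tested by exact two-sided permutation. Counts of no 2 libraries agreed within sampling noise (chi-square per degree of freedom at least 2.23). Positions came from GENCODE M21, in which 32593 of 33000 identifiers matched. The members and lists were chosen with earlier results of these data known. The genes to name were the 4 filament genes, Il6, the neighbours of Gfap, the genes called in each list or, where fewer than 2 were called, those of highest TPM up to 2, and the 3 genes most like a called filament gene. Not all of them are printed, and Hspb1, Dst, Des, Bfsp2, Lmnb1, Aqp4, Atp1b2, Aldh1l1, Emcn and P2ry12 were added after their values were seen.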

Additional observations from a re-analysis of the deposited data

How the results depend on the processing

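The Gfap difference passed the test under all 14 alternatives listed in the methods, with log2 fold changes of 2.62 to 3.07 when libraries were left out. Vim kept its direction in all of them (0.39 to 0.82 when libraries were left out) and passed in 3, namely without the low-count filter (0.5857, adjusted p = 0.000977), with DESeq2 (0.5938) and without WT replicate 2. Nes spanned -0.23 to 0.12 and Synm -0.0275 to 0.0707 when libraries were left out, so their direction was not fixed, and neither passed under any alternative. The cause was not tested. The genes called numbered 1154 (801 higher) without the filter and from 187 (without GFAP-IL6 replicate 3) to 1061 (without WT replicate 1) when libraries were left out, with 186 to 692 higher, and 282 without GFAP-IL6 replicate 2. With a replicate block, 750 genes were called and Vim was 0.60 (adjusted p = 0.0699), but samples with the same number did not deviate together (correlations of 0.0918, 0.012 and 0.0145), so the numbers were not treated as pairs. With shares taken from CPM, not divided by length, the difference between groups (GFAP-IL6 minus WT, in percentage points) was -9.553 for Vim, -5.68 for Nes and -19.69 for Synm, against -18.4, -3.94 and -10.6 from TPM. With the exon lengths of GENCODE M21, an alternative chosen after seeing the data, it was 28.57 for Gfap and -10.84 for Vim. With 3 mice a group, p-values of ratios and shares cannot go below 0.1, and Nes had as few as 58 counts in a library.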
